A study of Arabidopsis thaliana with 6 samples.

Results

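The loci described here are those of the mitochondrial and chloroplast genomes of Arabidopsis thaliana, taken as every row of the expression table whose locus ID starts with ATMG or ATCG. They number 106 of 27826 rows, 92 of the mitochondrial and 14 of the chloroplast genome. RNA of 16-cell embryos, taken 72 h after flowers were pollinated by hand, was measured on 6 microarrays. On 3 arrays, called nuclear, the RNA came from embryo nuclei captured with INTACT, a method in which nuclei of chosen cells carry a biotin tag and are pulled down, here with a marker line for the whole embryo. On the other 3 arrays, called cellular, it was total RNA of embryos dissected with a micromanipulator. Plants of both groups grew on soil at 22 °C, with a light period of 16 h and a dark period of 8 h. No strain, treatment or promoter of the INTACT marker is named in the labels, which call the arrays of a group biological replicates. Whether these come from separate plants is not stated, so p-values measure only the spread between the samples. How the embryos were isolated and which RNA was taken differ together, so that they cannot be told apart.

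Plant mitochondria and chloroplasts keep small genomes of their own, transcribed inside the organelle. The mitochondrial genome encodes subunits of the respiratory chain and of ATP synthase, proteins of cytochrome c maturation, some ribosomal proteins, ribosomal and transfer RNAs and many open reading frames without an assigned role. The chloroplast genome encodes subunits of the photosystems, the large subunit of Rubisco, the plastid RNA polymerase core, ribosomal proteins and its own ribosomal and transfer RNAs. Most other organelle proteins are made from nuclear genes, among them the factors that transcribe and edit organelle RNA. In Arabidopsis a large copy of mitochondrial DNA also lies on chromosome 2, next to the centromere, so that many mitochondrial sequences have a nuclear counterpart. None of the 106 loci matched a locus tag of the RefSeq gene table used for names, so they are given by ID, and known genes were not set against open reading frames. The sequences of the loci are not printed, since no sequence was used here.

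The labelled tissue was checked against marker genes. Of 10 embryo markers, 10 had a lower mean in nuclear than in cellular RNA and 7 passed the test, while 4.66% of all rows passed as lower. For PIN7, below the array median on all 6 arrays, the log2 difference was only -0.03. Summed intensity of the 10 lay between 145 and 196 on the nuclear arrays and between 641 and 1611 on the cellular arrays. WOX2, a homeobox transcription factor that marks the apical daughter of the zygote, stood at log2 3.11, 2.84 and 2.24 on the nuclear arrays against array medians of 2.56 to 2.68, and at 8.71, 8.10 and 6.10 on the cellular arrays. Of 12 seed coat markers, 12 had a higher mean in nuclear RNA and 0 passed. Of all 27826 rows, 17052 had a higher and 10774 a lower mean in nuclear RNA, and 1.17% passed as higher. Summed intensity of the 12 seed coat markers lay between 1324 and 3371 on the nuclear arrays and between 157 and 1482 on the cellular arrays. No marker is listed at 0, and TT10, a seed coat laccase, lay below the array median on 5 of 6 arrays. Of 8 endosperm markers, 7 had a higher mean in nuclear RNA, 5 lay below the array median on all 6 arrays and 0 passed the test. Their summed intensity was 30.5 to 67.0 on nuclear arrays and 29.0 to 37.3 on cellular arrays. PHE1, a MADS-box gene of the endosperm, stood highest of the 8 on nuclear replicate 2, at 4.95. The part of these tissues in the results below was not tested.

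Both organelle genomes gave bright rows in both kinds of RNA. In such bulk samples, fewer cells or organelles of a kind and less RNA in each cannot be told apart. The median log2 intensity of the 92 mitochondrial loci was 7.15, 6.56 and 7.28 for nuclear replicates 1 to 3, against 7.06, 8.18 and 8.03 for cellular replicates 1 to 3. The median of all rows lay between 2.46 and 2.68 on the 6 arrays, so the typical mitochondrial locus was far above the typical row on nuclear arrays as well. Between 77 and 83 of the 92 loci lay above the array median on nuclear arrays, and between 86 and 91 on cellular arrays. The brightest 5% of rows held 51 to 54 of the 92 on nuclear arrays, against 50 to 64 on cellular arrays. The 14 chloroplast loci had medians of 8.93, 8.58 and 8.71 on the nuclear arrays and of 6.94, 8.02 and 8.28 on the cellular arrays. All 14 were above the array median on 5 arrays, and 13 were on cellular replicate 1.

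As a share of all intensity on an array, the mitochondrial loci made up 5.86%, 5.46% and 5.67% of the nuclear arrays and 5.002%, 8.31% and 8.51% of the cellular arrays. The nuclear share thus lay above that of cellular replicate 1 and below those of cellular replicates 2 and 3. Total intensity, by which a share is divided, was 751097, 657047 and 770502 on nuclear arrays and 852688, 917624 and 869819 on cellular arrays. As plain sums, the mitochondrial loci gave 44002, 35870 and 43709 on nuclear arrays and 42651, 76214 and 74059 on cellular arrays. In these sums nuclear replicate 2 lay below cellular replicate 1. The chloroplast loci made up 2.64%, 2.69% and 3.11% of the nuclear arrays and 1.38%, 1.93% and 1.66% of the cellular arrays, with no overlap. Without ATCG00970 and ATCG01160, which share one set of values, the chloroplast share was 1.67%, 1.42% and 2.13% on nuclear arrays and 1.35%, 1.89% and 1.56% on cellular arrays, and the groups overlapped. Array intensity depends on the probes as well as on the RNA, so a difference in level between loci is not one in RNA amount.

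**Figure D1:**
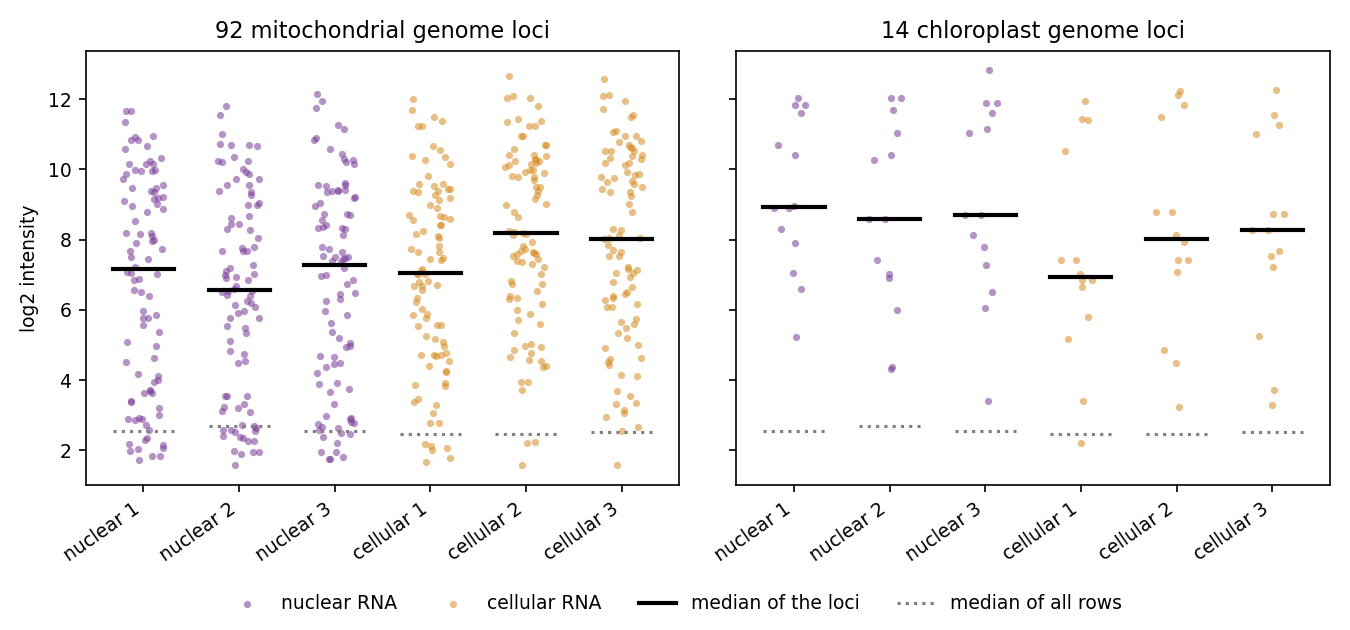
Log2 intensity of every mitochondrial (left) and chloroplast (right) genome locus on each array, nuclear arrays in purple and cellular arrays in orange, with the median of the loci as a black bar and the median of all rows as a dotted line. The mitochondrial median is at 7.06 on cellular replicate 1, beside 8.18 and 8.03 on cellular replicates 2 and 3, and at 6.56 to 7.28 on the nuclear arrays.

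Of the 5 brightest mitochondrial loci, 0 passed the test, and ATMG00160 alone had groups that did not overlap. ATMG01190, with the highest mean over the 6 arrays, stood at 11.68, 11.003 and 12.14 on the nuclear arrays and at 12.02, 12.67 and 12.58 on the cellular arrays. Its groups overlapped, and the difference of -0.81 ± 0.35 (log2, nuclear minus cellular, SE) did not pass the test (limma, adjusted p = 0.225). ATMG01200 stood at 11.65, 11.80 and 11.94 on the nuclear arrays and at 11.24, 12.09 and 12.13 on the cellular arrays. ATMG01120 stood at 11.35, 11.54 and 11.76 on the nuclear arrays and at 11.69, 12.04 and 12.09 on the cellular arrays. In both the groups overlapped, since cellular replicate 1 lay below at least 1 nuclear array. ATMG00160 stood at 10.66, 10.02 and 11.26 on the nuclear arrays, against 11.48, 12.04 and 11.96 on the cellular arrays, but missed the threshold (adjusted p = 0.116). The last of the 5 brightest, ATMG00580, averaged 10.94 ± 0.22 in nuclear and 11.09 ± 0.50 in cellular RNA (SD, n = 3 each).

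Across the mitochondrial genome, loci tended to be lower in nuclear than in cellular RNA, and 16 of 92 passed the test as lower. The test was limma on log2 intensity over all 27826 rows, two-sided, and calls were made at an adjusted p (Benjamini-Hochberg) under 0.05. All 106 loci were tested, since no filter on dim rows was applied. Of the 92, 71 had a mean below 0 for nuclear minus cellular and 21 above, 43 were at least 2-fold lower and 2 at least 2-fold higher, and 0 passed as higher (2 at an unadjusted p under 0.05, and 31 lower). The median log2 change was -0.87, with quartiles of -1.76 and -0.17, while the median of all rows was 0.14. Over all rows 5.83% passed, 4.66% as lower and 1.17% as higher. Of all rows 38.7% had a mean below 0, 3526 were at least 2-fold lower and 2080 at least 2-fold higher. At an unadjusted p under 0.05, 3669 of all rows were lower and 2888 higher. Among the 6237 rows of the nuclear chromosomes with a mean log2 level of 4 or more, 14.8% passed as lower and 3.05% as higher, with a median change of -0.41. The 80 mitochondrial loci at that level had 15 lower calls (18.8%), 0 higher calls and a median of -0.83. The share of lower calls is therefore near that of nuclear-chromosome rows with the same lower bound on level. A mean below 0 was found for 61 of the 80 mitochondrial loci and for 61.9% of the 6237 rows. At least 2-fold lower were 38 of the 80 and 2155 of the 6237, and at least 2-fold higher 2 and 974. At an unadjusted p under 0.05, 26 and 2072 were lower and 2 and 790 higher. These sets were not matched in brightness, with median mean levels of 7.77 for the mitochondrial and 5.03 for the nuclear-chromosome rows.

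A simpler reading is whether the groups overlap at all, which 33.2% of all rows did not. All 3 nuclear arrays lay below all 3 cellular arrays for 27 of the 92 mitochondrial loci (29.3%), against 14.3% of all rows and 33.1% of nuclear-chromosome rows with a mean level of 4 or more. For 1 of the 92, ATMG00990, all nuclear arrays lay above all cellular arrays, against 19% of all rows and 12.6% of the brighter nuclear-chromosome rows. ATMG00990 stood at 10.32, 10.68 and 10.28 on the nuclear arrays and at 9.44, 9.91 and 9.86 on the cellular arrays. Its change of 0.69 ± 0.22 (SE) did not pass (adjusted p = 0.136), but did when the arrays were scaled by cyclic loess (adjusted p = 0.0379) or by quantiles (adjusted p = 0.0476).

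**Figure D2:**
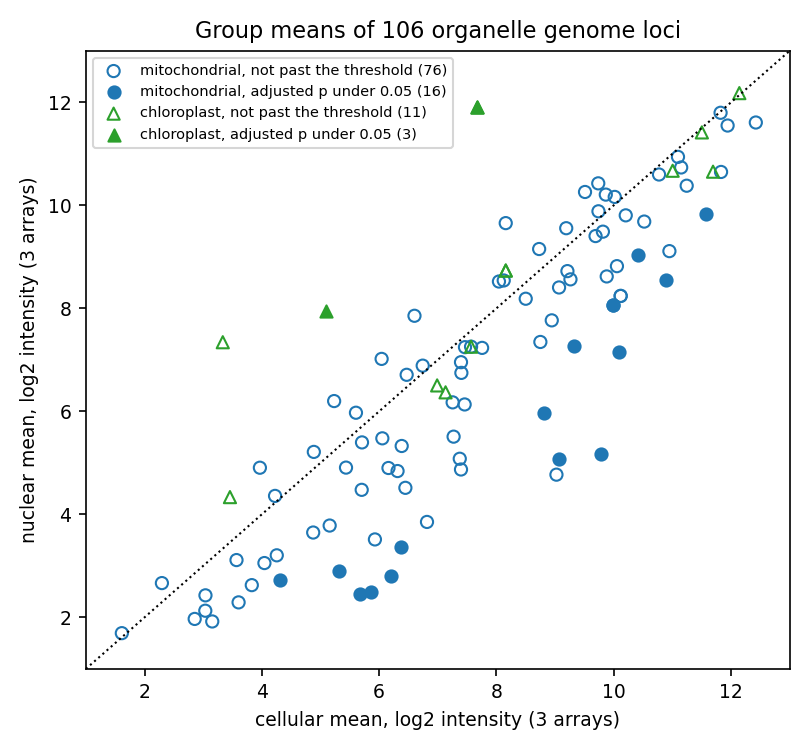
Mean log2 intensity over 3 nuclear arrays (vertical axis) against the mean over 3 cellular arrays (horizontal axis) for each of the 106 loci, circles for the mitochondrial and triangles for the chloroplast genome, filled where the adjusted p was under 0.05. The 16 filled circles lie below the dotted line of equal means and the 3 filled triangles above it, 2 of them at one point.

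Where a single array was left out, the mitochondrial counts moved. With nuclear replicate 1, 2 or 3 left out, 7, 4 or 9 loci were lower, and with cellular replicate 1, 2 or 3 left out, 8, 1 or 10. In the same fits, 832, 613 or 941 and then 446, 255 or 1691 of all rows were called lower, against 1296 with all arrays. The mitochondrial median change with cellular replicate 1, 2 or 3 left out was -1.19, -0.53 or -0.76. Of the 16 lower loci, 5, 4 and 8 kept their call without nuclear replicates 1, 2 and 3, and 7, 1 and 9 without cellular replicates 1, 2 and 3. The 1 left without cellular replicate 2 was ATMG01250, which kept its call in every omission. ATMG01210 lost its call in the omission of cellular replicate 2 and ATMG00460 in those of nuclear replicate 2 and of cellular replicate 2, while the other 13 lost theirs in 3 to 5 of the 6 omissions.

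Cellular replicate 1 stood apart from the other cellular arrays over the mitochondrial genome. It held the lowest cellular value for 74 of the 92 loci (80.4%), against 13 for cellular replicate 3 and 5 for cellular replicate 2. Among nuclear-chromosome rows with a mean level of 4 or more it held the lowest cellular value for 35.1%. Over the 92 loci, the median difference of nuclear replicates 1, 2 and 3 from cellular replicate 1 was -0.10, -0.13 and -0.07, and 47, 50 and 48 loci were lower on the nuclear array. From cellular replicate 2 the median differences were -1.22, -1.55 and -1.30, and from cellular replicate 3 they were -1.05, -1.08 and -0.99. The difference between nuclear and cellular RNA at the middle of the mitochondrial genome was thus present against cellular replicates 2 and 3 and close to 0 against cellular replicate 1. The brighter nuclear-chromosome rows had no such split, with median differences of -0.40, -0.59 and -0.28 from cellular replicate 1 and of -0.29 to -0.65 from the other cellular arrays. On the same arrays the median log2 level of the 12 seed coat markers was 6.95, 5.75 and 5.99 in nuclear replicates 1 to 3 and 3.09, 4.62 and 6.17 in cellular replicates 1 to 3, and that of the 10 embryo markers was 2.54, 2.87 and 2.25 in nuclear and 7.21, 6.50 and 5.92 in cellular replicates. Cellular replicate 1 was the highest array for the embryo markers and the lowest for the seed coat markers. The part of either in the mitochondrial levels was not tested.

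**Figure D3:**
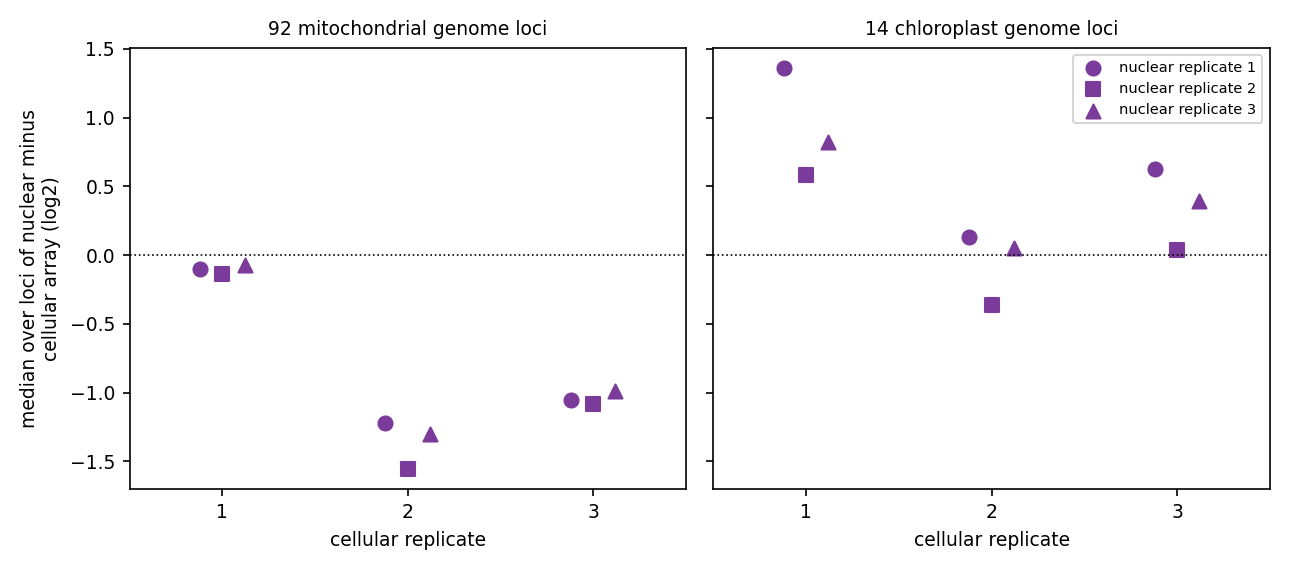
Median over loci of the log2 difference between 1 nuclear and 1 cellular array, for each of the 3 cellular replicates on the horizontal axis and with 1 symbol per nuclear replicate, for the mitochondrial (left) and chloroplast (right) genome. For the mitochondrial genome the 3 differences from cellular replicate 1 lie between -0.07 and -0.13, and those from cellular replicates 2 and 3 between -0.99 and -1.55.

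Among single mitochondrial loci, ATMG01250 had the lowest p. It stood at 2.85, 2.57 and 2.97 on the nuclear arrays, near the array medians, and at 6.57, 5.71 and 6.34 on the cellular arrays. Its log2 change of -3.41 (SE 0.28, limma adjusted p = 0.00478) passed under all 15 alternatives run, with adjusted p up to 0.0315.

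ATMG00920 had the largest fall. Its values were 5.76, 3.31 and 6.46 on the nuclear arrays, against 9.27, 10.15 and 9.92 on the cellular arrays. It fell by 4.60 on the log2 scale (SE 0.80, adjusted p = 0.0288), or 24.3-fold, with nuclear replicate 2 the lowest array. ATMG00810 stood at 5.98, 5.92 and 3.33 on the nuclear arrays and at 8.99, 9.93 and 8.26 on the cellular arrays. It was 15.9-fold lower in nuclear RNA (SE 0.81 on the log2 scale, adjusted p = 0.0438), and nuclear replicate 3 was its lowest array. ATMG01080 had values of 2.05, 5.77 and 6.49 on the nuclear arrays and of 8.57, 9.01 and 9.49 on the cellular arrays. Its difference of -4.25 was among the widest, but the nuclear arrays spread by more than 4 log2 units and the test was not passed (SE 1.12, adjusted p = 0.0850). Without nuclear replicate 1, its lowest array, the difference was -2.89 and passed (adjusted p = 0.0291).

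Several lower loci were dim on most nuclear arrays and brighter on the cellular arrays. ATMG01030 stood at 1.99, 3.55 and 1.95 in nuclear RNA and at 6.35, 6.73 and 4.52 in cellular RNA, and fell by 3.37 on the log2 scale (adjusted p = 0.0474). ATMG00460 stood at 2.34, 2.35 and 2.63 in nuclear RNA and at 4.71, 5.88 and 6.44 in cellular RNA, a log2 change of -3.23 (adjusted p = 0.0149). ATMG00750 averaged 2.90 ± 0.33 in nuclear and 5.32 ± 0.74 in cellular RNA (SD, n = 3 each), and ATMG01230 averaged 2.73 ± 0.39 and 4.30 ± 0.22. ATMG00820 stood at 2.18, 3.24 and 4.70 on the nuclear arrays and at 6.23, 6.81 and 6.08 on the cellular arrays. For these 5 loci and ATMG01250 the nuclear mean was within 1 log2 unit of the median of all rows, and with no detection calls in the table such a level cannot be told from background. Where it is background, the measured change is a lower bound of the difference, so no fold is given for these loci.

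The other lower loci were bright in nuclear RNA too. ATMG01210 had 7.52, 6.43 and 7.53 on the nuclear arrays, against 9.35, 10.58 and 10.33 on the cellular arrays, a fall of 2.93 on the log2 scale (SE 0.44, adjusted p = 0.0197). ATMG01090 had 5.85, 6.19 and 5.86 on the nuclear arrays, against 7.47, 9.38 and 9.59 on the cellular arrays, with cellular replicate 1 the lowest of its group. ATMG01270 averaged 8.55 ± 0.70 in nuclear and 10.89 ± 0.52 in cellular RNA, and ATMG00670 averaged 7.27 ± 0.24 and 9.33 ± 0.62 (SD, n = 3 each). ATMG00480 stood at 9.99, 9.27 and 10.21 on the nuclear arrays and at 11.38, 11.81 and 11.54 on the cellular arrays, 3.37-fold lower (adjusted p = 0.0259). ATMG00370 had the smallest fall of the 16 and the lowest SE (0.22), with 8.87, 9.03 and 9.22 in nuclear RNA and 10.15, 10.68 and 10.41 in cellular RNA (2.59-fold, adjusted p = 0.0224). ATMG00170 and ATMG00620 share one set of values, 8.19, 7.67 and 8.33 on the nuclear arrays, against 9.37, 10.40 and 10.17 on the cellular arrays (3.79-fold lower, adjusted p = 0.0288), so the 16 lower rows are 15 profiles.

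**Figure D4:**
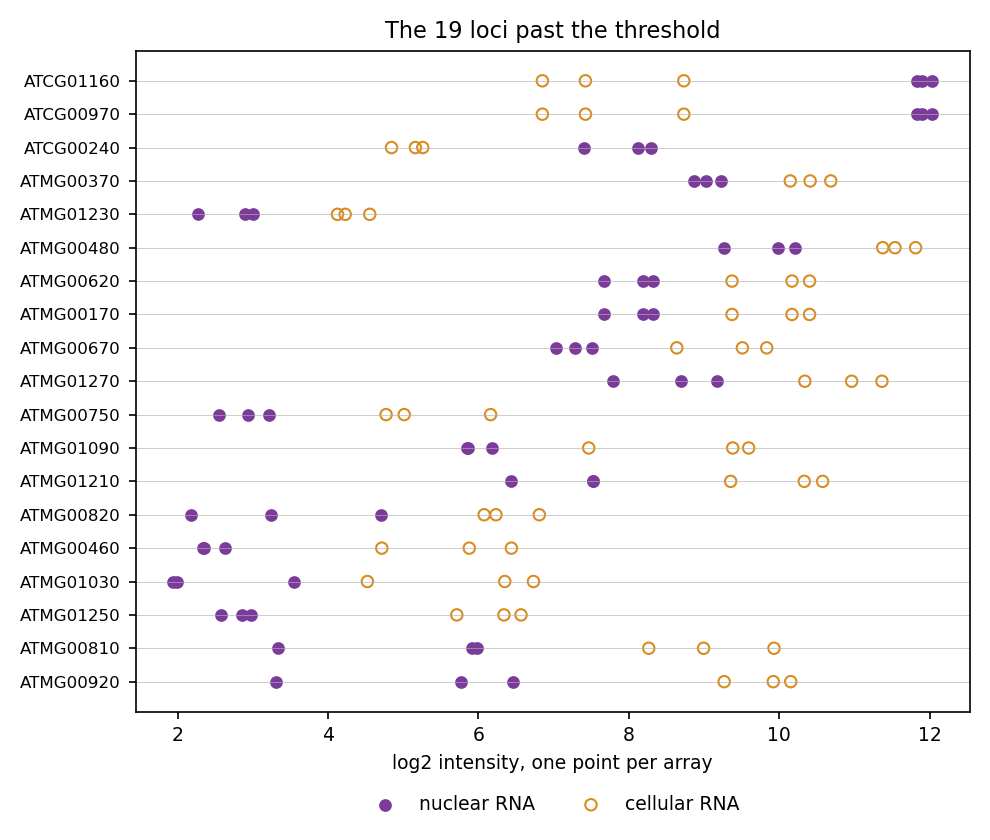
Log2 intensity on each array of the 19 loci with an adjusted p under 0.05, nuclear arrays as filled purple points and cellular arrays as open orange points, ordered by change with the largest fall at the bottom. In each row the 3 nuclear and the 3 cellular points do not overlap, and in ATMG00920, ATMG00810 and ATMG00820 the nuclear points are the more widely spread.

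On the other side, the mitochondrial loci with the highest changes did not pass. ATMG01000 stood at 10.85, 9.54 and 8.57 on the nuclear arrays and at 7.64, 8.79 and 8.04 on the cellular arrays, a change of 1.496 ± 0.61 (SE, adjusted p = 0.209). ATMG00520 stood at 7.73, 8.98 and 6.85 on the nuclear arrays and at 4.55, 7.21 and 8.04 on the cellular arrays (adjusted p = 0.458). In both the groups overlapped. ATMG01100, ATMG01070 and ATMG00190 had changes of 0.98, 0.97 and 0.94, with adjusted p between 0.337 and 0.625.

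Some loci varied more among nuclear replicates than between the groups. ATMG00600 stood at 9.02, 1.94 and 3.75 on nuclear replicates 1 to 3 and at 4.97, 5.59 and 5.75 on cellular replicates 1 to 3. ATMG00350 stood at 9.99, 5.77 and 4.37 on the nuclear arrays and at 6.67, 6.34 and 6.39 on the cellular arrays. In both, nuclear replicate 1 was the highest of the 6 arrays while the cellular arrays lay within 1 log2 unit of each other. The median SD of a mitochondrial locus was 0.63 among nuclear and 0.69 among cellular arrays, while that of nuclear-chromosome rows with a mean level of 4 or more was 0.62 and 0.47. Across the 92 loci, arrays of the cellular group correlated at r = 0.937 to 0.967, and nuclear arrays at 0.824 to 0.895. Nuclear replicate 3 correlated with cellular replicate 3 at 0.905, above any pair of nuclear arrays. These correlations are across loci that share the arrays and are given as a description.

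Of the 14 chloroplast loci, 3 rose in nuclear RNA and 0 fell (1 lower and 4 higher at an unadjusted p under 0.05), and the median log2 change was 0.31. Over all rows 1.17% passed as higher, and at an unadjusted p under 0.05, 3669 of all 27826 rows were lower and 2888 higher. Of the 14 loci, 13 had a mean level of 4 or more. Among nuclear-chromosome rows at that level, 3.05% passed as higher. With each set of shared values counted once the chloroplast median was -0.03. ATCG00970 and ATCG01160, which share all 6 values, stood at 11.83, 12.03 and 11.89 on the nuclear arrays and at 6.85, 7.42 and 8.73 on the cellular arrays. They rose 19.01-fold (log2 change 4.25, SE 0.47, limma adjusted p = 0.00972), the nuclear arrays lying within 0.2 log2 units of each other and cellular replicate 3 nearest to them. The call was lost without cellular replicate 2 (adjusted p = 0.0538), where 1 chloroplast call was left, that of ATCG00240.

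ATCG00240 stood at 8.29, 7.41 and 8.13 on the nuclear arrays and at 5.16, 4.84 and 5.26 on the cellular arrays. It rose 7.23-fold (log2 change 2.85, SE 0.29, adjusted p = 0.00765) and passed under all 15 alternatives, with adjusted p up to 0.0465. Its values are also those of AT3G20365, a locus of chromosome 3 that RefSeq lists as a pseudogene with a tyrosine tRNA synonym, so the 2 loci cannot be told apart here. ATCG00250, next to it by ID, stood at 8.94, 7.03 and 6.04 on the nuclear arrays and at 2.22, 4.49 and 3.29 on the cellular arrays. Its groups did not overlap and its change was 4.01 (SE 0.87), but the adjusted p was 0.0526. It passed when arrays were scaled by cyclic loess (adjusted p = 0.0466) or by quantiles (0.0451), and with a trended variance (0.0275). It also passed when only the 14499 rows with a mean above the median of all values were fitted (adjusted p = 0.0180). ATCG00230 had a change of 0.88 with overlapping groups (adjusted p = 0.303).

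The 2 brightest chloroplast loci had overlapping groups. ATCG00020 stood at 12.02, 11.70 and 12.82 on the nuclear arrays and at 11.94, 12.22 and 12.26 on the cellular arrays, a change of 0.04 ± 0.32 (SE). ATCG00140 stood at 11.60, 11.04 and 11.61 on the nuclear arrays and at 11.41, 11.84 and 11.26 on the cellular arrays. ATCG00670 was the 1 chloroplast locus with every nuclear array below every cellular array, at 10.40, 10.41 and 11.14 in nuclear RNA and 11.42, 12.11 and 11.54 in cellular RNA, and its change of -1.04 ± 0.30 did not pass (adjusted p = 0.108). ATCG00160, ATCG00170, ATCG00580 and ATCG00610 had changes between -0.76 and -0.31 with overlapping groups. Groups did not overlap for 4 loci with nuclear RNA above and 1 below, or 28.6% and 7.14% of the 14, against 19% and 14.3% of all rows. Against cellular replicate 1 the chloroplast loci lay higher on the nuclear arrays by a median of 1.36, 0.59 and 0.82, against cellular replicate 2 by 0.13, -0.36 and 0.05, and against cellular replicate 3 by 0.63, 0.04 and 0.39.

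Of the 106 loci, 44 shared all 6 values with another row of the table, 35 mitochondrial and 9 chloroplast. Of the 35, 31 had a partner on chromosome 2, where the nuclear copy of mitochondrial DNA lies, and 4 were 2 pairs within the mitochondrial genome (ATMG00080 with ATMG00090, and ATMG00170 with ATMG00620). ATMG00930 and ATCG00610 shared their values with each other and with AT2G07748, which RefSeq lists as a tRNA for tryptophan, so that 1 profile stood for 3 genomes. Chloroplast partners were on chromosome 2 for 3 loci and on chromosome 3 for 2 loci, and ATCG00970 with ATCG01160 and ATCG00990 with ATCG01140 were pairs within the chloroplast genome. Signal of a shared row cannot be assigned to the organelle or the chromosome. The 57 unshared mitochondrial loci had a median change of -0.99 with 10 lower calls (17.5%), and the 31 shared with chromosome 2 had a median of -0.52 with 4 lower calls (12.9%). Both shares lie above the 4.66% of all rows and near the 14.8% of nuclear-chromosome rows with a mean level of 4 or more.

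By RefSeq, the chromosome 2 partners are 14 transcribed pseudogenes, 8 tRNA genes, 5 protein-coding genes and 4 other pseudogenes. The 14 rows with a transcribed pseudogene as partner had a median change of -0.48, with 1 call, ATMG01210. The 8 with a tRNA partner had a median of 0.16 with 1 call, ATMG00460, whose partner AT2G07794 carries a methionine tRNA synonym. Another locus with a methionine tRNA partner, ATMG00250, stood at 3.64, 2.39 and 1.96 on the nuclear arrays, against 2.13, 2.22 and 2.54 on the cellular arrays. The proline tRNA partner belongs to ATMG00350, described above for its spread, and the asparagine one to ATMG00380, with 8.52, 8.61 and 8.42 on the nuclear and 7.16, 8.66 and 8.30 on the cellular arrays. ATMG00800, with a glutamate tRNA partner, lay between 1.57 and 1.77 on the 6 arrays. The 5 with a protein-coding partner had a median of -1.05 with 1 call, ATMG00480, and the 4 with another pseudogene as partner a median of -1.54 with 1 call, ATMG00750. These are single calls in small classes, beside 4.66% of all rows and 14.8% of brighter nuclear-chromosome rows called lower. ATMG00980, 1 of the 5 with a protein-coding partner, had every nuclear array below every cellular array. It stood at 10.15, 7.78 and 9.40 against 10.67, 11.23 and 10.95 (limma, adjusted p = 0.137).

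Ranked among themselves along chromosome 2, the partners followed the order of the mitochondrial IDs in 4 blocks. Mitochondrial loci without such a partner, among them ATMG00200 and ATMG00210, lie by ID between members of a block. The first held 11 loci from ATMG00180 to ATMG00380 and the second 8 from ATMG00460 to ATMG00600, both in the same direction as the IDs. The third held 9 loci from ATMG00750 to ATMG01100 and the fourth 3 from ATMG01210 to ATMG01310, both in the opposite direction. The 4 runs together span most of the range of mitochondrial IDs.

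**Figure D5:**
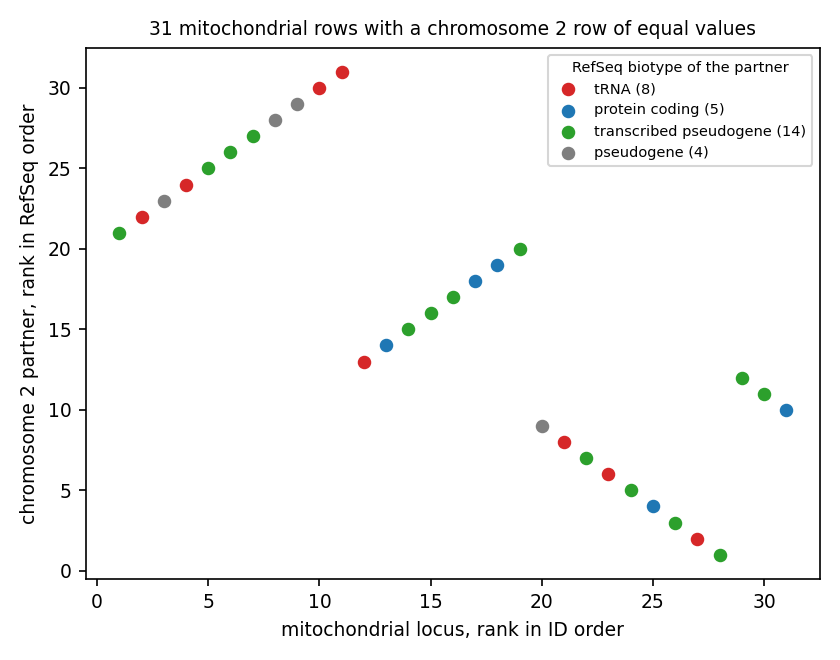
For the 31 mitochondrial rows that share all 6 values with a chromosome 2 row, the rank of the mitochondrial locus in ID order (horizontal axis) against the rank of its partner along chromosome 2 in RefSeq order (vertical axis), coloured by the RefSeq biotype of the partner. The points form 4 straight runs of 11, 8, 9 and 3 loci, the first 2 rising and the last 2 falling.

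Proteins of nuclear genes take part in making and processing organelle RNA, and 29 genes from a list written for this were measured. Among them are sigma factors of the plastid polymerase, plastid transcriptionally active chromosome proteins (PTAC) and the MORF factors of RNA editing. The polymerase names RPOTM, RPOTmp and RPOTP matched no measured gene, so these are not among the 29. Of the 29, 1 fell in nuclear RNA and 0 rose (13 lower and 2 higher at an unadjusted p under 0.05), 20 had a mean below 0, and the median log2 change was -0.68, against 0.14 for all rows. The 1 that fell was MORF6 (AT2G35240), at 3.84, 4.55 and 5.67 on the nuclear arrays, against 8.05, 7.86 and 8.14 on the cellular arrays (log2 change -3.33, SE 0.46, adjusted p = 0.0153). Its call was lost without nuclear replicate 2, cellular replicate 1 or cellular replicate 2, when 0 of the 29 passed, and 5 passed as lower without cellular replicate 3. MORF1 (AT4G20020) had the next lowest p, at 2.72, 2.52 and 2.46 on the nuclear arrays, against 5.01, 5.44 and 3.67 on the cellular arrays (adjusted p = 0.0505). Of all rows 4.66% passed as lower, so 1 of 29 is near that share. The other counts lay further from those of all rows. At an unadjusted p under 0.05 in the same limma fit, 3669 of all 27826 rows were lower and 2888 higher. All nuclear arrays lay below all cellular arrays for 12 of the 29 and above for 2, against 14.3% and 19% of all rows.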

How the data were processed

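The deposited table gives an intensity on a linear scale for each locus and array. RMA is the tool named in the submitters' processing notes for how the authors made it. The array type, probe definitions, RMA version and genome build are not given in the sources used here. Per the labels' protocols, 4.25 ug of biotinylated cDNA per array came from whole-transcriptome amplification of TRIzol-extracted RNA. RMA usually includes quantile normalization of probes, which can shift differences between unlike RNA pools. Log2 was taken once, with no further normalization and no filter. There are no detection calls, and 3 arrays per group limit the precision.

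A linear model (lmFit, then eBayes, limma 3.58.1, R 4.3.3) was fitted to all 27826 rows (nuclear minus cellular, 4 residual and 2.32 prior degrees of freedom, Benjamini-Hochberg over all rows). The fit was also run on simulated data, where the size of added changes was checked and the calls were not. Names came from a RefSeq table of assembly TAIR10.1. Partners are rows equal in all 6 deposited values. Of 38 gene names written for organelle gene expression, 7 matched no measured gene, 2 matched several, and the other names gave 29 genes. The members, lists and level classes were chosen with earlier results of these data known. Named loci were those called, the 5 largest rises and falls and the 5 brightest per genome, and some of the loci with shared values. ATMG00990 was added after its values were seen, and ATMG00200 and ATMG00210 as examples of loci without a partner. Alternatives were cyclic loess, quantile normalization, centring on nuclear-chromosome rows, an added constant of 16, and only rows with a mean above the median of all values. Others were a trended robust variance, array weights, the replicate number as a block, shared rows counted once and each array left out. Groups and replicate numbers came from the sample titles.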

Additional observations from a re-analysis of the deposited data

How the results depend on the processing

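The count of mitochondrial loci called lower, 16, was 8 after cyclic loess, 10 after quantile normalization, 6 with log2 of the value plus 16, and 1 to 10 with 1 array left out. Cyclic loess and quantile normalization each gave 1 mitochondrial locus called higher (ATMG00990), against 0 otherwise. The split of all calls was 325 higher and 1296 lower on the deposited values, 506 and 864 after cyclic loess, 438 and 937 after quantile normalization, 149 and 709 with log2 of the value plus 16, 117 and 566 under the replicate block, and 29 and 255 without cellular replicate 2. Cyclic loess and quantile normalization moved the median of all rows to 0.02 and 0.04 from 0.14, and the mitochondrial median to -0.56 and -0.68. The mitochondrial median stayed below 0 under every alternative, between -1.19 and -0.53. The chloroplast median was 0.85 after cyclic loess, and -0.03 with shared rows counted once. Chloroplast calls, 3 higher, numbered 1 to 3 with 1 array left out. Without loci that share values outside their genome, an alternative chosen after seeing the data, 12 of 61 mitochondrial loci were lower and 2 of 9 chloroplast loci higher. Calls lower among nuclear genes of organelle expression, 1, numbered 2 after quantile normalization and 3 when arrays were centred on nuclear-chromosome rows. These calls numbered 2 each among rows with a mean above the median of all values, with a trended variance and with array weights. With 1 array left out they numbered 0 to 5. The replicate block gave 5 lower mitochondrial loci and the same 3 chloroplast loci. Same-numbered arrays had deviations correlated at -0.05, -0.06 and -0.01 over all rows and at 0.24, 0.27 and -0.0083 over the mitochondrial loci. Arrays of unlike number had values from -0.035 to 0.080 over all rows and from -0.33 to 0.13 over the mitochondrial loci. With 3 arrays per group, such values cannot show whether same-numbered samples were paired. Signs were compared only for the called loci and the 5 largest rises and falls per genome. Among these, they turned for ATCG00170 (0.043 after cyclic loess, -1.18 to 0.60 with 1 array left out), ATCG00580 (0.22 after cyclic loess), ATCG00610 (0.23 after cyclic loess, 0.048 after quantile normalization) and ATMG01100 (-0.19 to 2.01 with 1 array left out), none of them called. The causes were not tested. Known genes and open reading frames were not compared, since no table used here annotates the loci.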
